A study of Mus musculus with 8 samples.

Results

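Collagen chain genes were taken as every gene whose symbol is Col, a type number, a and a chain number, and 42 such genes had a probe, out of 32530 genes or unnamed accessions on the array. They were measured by 61 probes. Of the 42, 31 had a probe that stood well above background throughout 1 or more groups and were tested, among 22422 genes tested in all. The samples were R1 mouse embryonic stem cells, an established line, which had been transfected with siRNA and differentiated as embryoid bodies, aggregates in which the early germ layers form. The siRNAs targeted CnAβ1, a splice variant of the catalytic subunit calcineurin Aβ encoded by Ppp3cb, and the question was which transcripts differ when it is knocked down. The 3 groups were Control siRNA on 3 arrays, CnAβ1 siRNA 1 on 3 arrays and CnAβ1 siRNA 2 on 2 arrays. All 8 arrays shared the line, the 48 hours of embryoid body culture and collection of total RNA 48 hours after transfection, so there was no untransfected group and no other time. All 3 groups are 1 cell line, and the labels do not state whether replicates came from separate cultures, so a p below measures the spread between these samples alone, and that spread may be technical.

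Collagens are secreted trimers wound from 3 chains, and each type assembles from its own set of chains. Types I, II, III, V and XI form fibrils, type IV forms the sheet-like network of basement membranes, and type VI forms beaded filaments that link cells to the matrix around them. In the early embryo and in embryoid bodies the first basement membrane, rich in type IV collagen and laminin, is laid down by endoderm cells. The chains of a trimer are folded in the endoplasmic reticulum with dedicated hydroxylases and the chaperone HSP47, which Serpinh1 encodes.

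Levels below are log2 processed signals relative to the 75th percentile of the array, so 0 is the brightness of that percentile, and differences are log2 differences of such levels. Between 68.0% and 75.1% of spots were well above background on an array, and the percentile lay between 839 and 1033 intensity units. With 8 arrays in all, their number limits how precise a difference can be. The 8 pluripotent cell markers were well above background on all 8 arrays. The Ppp3cb probe read 0.74, 0.52 and 0.62 on the Control arrays, 0.18, 0.39 and 0.60 on the siRNA 1 arrays, and 0.41 and 0.62 on the siRNA 2 arrays, so the groups overlapped, and whether the probe reads the CnAβ1 variant was not tested. The arrays lay on 3 slides. Slide 1 held replicate 1 of every group. Slide 2 held Control replicate 2 and siRNA 1 replicate 3, and slide 3 held Control replicate 3 and replicate 2 of both siRNAs. Without slide 1, siRNA 2 keeps its replicate 2 alone. Such values for siRNA 2 rest on that array, and those for both siRNAs averaged rest on it in part. On the first principal component, which held 42.5% of the variance, slide 1 lay away from the other 5 arrays, so within-slide or slide-block values stand beside the results that turn on them. Each group had the same position on every slide, and position and group cannot be told apart.

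No collagen gene was called in any comparison of the siRNA groups at an adjusted p under 0.05 (limma with Benjamini-Hochberg adjustment over all genes tested), and 0% of all genes were called. With both siRNAs averaged against Control, 2 collagen genes stood higher and 4 lower at an unadjusted p under 0.05, beside 2.28% and 1.3% of all genes. The 4 lower ones were Col6a1, Col6a2, Col4a1 and Col4a2, which encode the paired chains of type VI and type IV collagen, and the 2 higher ones were Col6a4 and Col9a2. By sign, 17 of the 31 were lower, beside 47% of all genes, and the median difference of the 31 was -0.04, beside 0.01 over all genes. Of the 31, 21 lay within 0.2 of 0, as did 85.5% of all genes. Values and counts given below for both siRNAs are those of the 2 siRNAs averaged. All of these RNAs came from whole embryoid bodies, in which fewer cells of a type and less RNA per cell cannot be told apart.

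**Figure D1:**
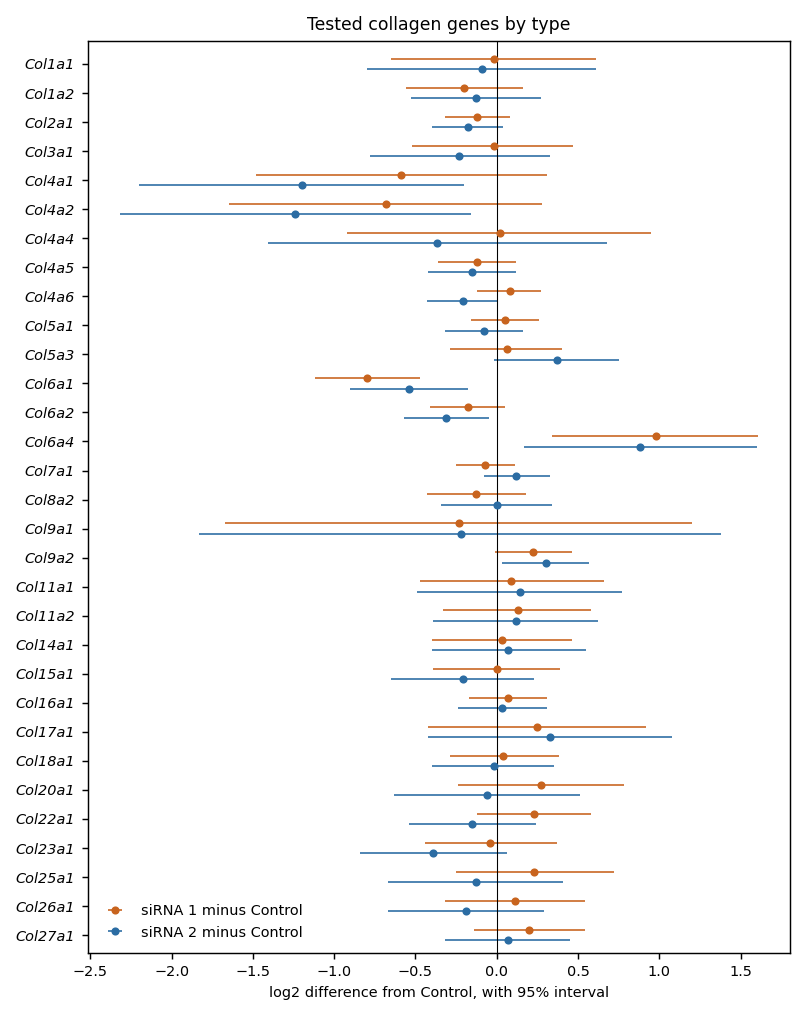
Log2 difference from Control (horizontal axis) of the 31 tested collagen genes in order of type (vertical axis), with siRNA 1 in orange and siRNA 2 in blue; points are limma estimates and lines their 95% intervals. Col4a1 and Col4a2 lie at -1.20 and -1.24 with siRNA 2, Col6a1 at -0.80 with siRNA 1, and Col6a4 at 0.98 and 0.88, and most other intervals span 0.

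Type IV collagen held the 2 lowest differences of all collagen genes for both siRNAs averaged. Col4a1 and Col4a2 encode the 2 chains of the trimer found in nearly all basement membranes, and they lie head to head on chromosome 8, Col4a1 at 11198423 to 11312889 and Col4a2 at 11312805 to 11449287 (RefSeq, build GRCm38.p6). The annotated Col4a1 gene reaches past the start site at 11312826 that the promoter table gives for it, and the distances below are from that site. Because their values followed each other across the arrays, the promoters of both are shown, each from 250 bases before to 50 after the start site, 5′ to 3′ on the gene's own strand. The windows are chr8:11312777-11313076 on the minus strand and chr8:11312555-11312854 on the plus strand, the start sites are 21 bases apart, and the capitals mark the 78 bases that the windows share, read from opposite strands.
Col4a1: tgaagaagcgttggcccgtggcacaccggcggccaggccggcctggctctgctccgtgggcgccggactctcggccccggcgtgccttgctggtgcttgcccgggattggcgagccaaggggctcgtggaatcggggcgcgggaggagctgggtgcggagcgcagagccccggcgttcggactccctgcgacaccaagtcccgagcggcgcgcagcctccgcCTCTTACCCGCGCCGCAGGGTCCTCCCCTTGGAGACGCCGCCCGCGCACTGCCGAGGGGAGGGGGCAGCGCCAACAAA
Col4a2: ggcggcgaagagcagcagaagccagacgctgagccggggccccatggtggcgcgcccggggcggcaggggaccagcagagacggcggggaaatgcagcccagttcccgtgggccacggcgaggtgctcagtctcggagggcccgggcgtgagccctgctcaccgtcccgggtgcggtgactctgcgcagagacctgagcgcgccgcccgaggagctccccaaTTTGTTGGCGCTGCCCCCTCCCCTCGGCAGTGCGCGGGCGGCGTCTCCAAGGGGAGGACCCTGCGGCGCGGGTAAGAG
The GC box GGGCGG was found in 1 place in the Col4a1 window and in 3 in the Col4a2 window, and CCAAT in 1 place in each, with both strands searched. The NFAT core GGAAA, the short sequence bound by the transcription factors that calcineurin activates, was found in 0 and 1 places, and TATAAA in neither. Over 38 windows of 35 collagen genes, 60.5% held the GC box, 34.2% CCAAT, 13.2% TATAAA and 57.9% the NFAT core, beside 35.7%, 37.4%, 13.6% and 61.3% of all 32851 windows of the same length. These are matches of letters and say nothing of binding.

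Col4a1 read -0.01, 0.36 and 1.43 on the Control arrays, -0.18, 0.46 and -0.25 on the siRNA 1 arrays, and -0.77 and -0.44 on the siRNA 2 arrays. Both siRNA 2 arrays lay below every Control array, while siRNA 1 overlapped Control, and the highest array of all was Control replicate 3. Col4a1 stood lower by 1.20 ± 0.42 (SE; 2.30-fold) with siRNA 2 and by 0.59 ± 0.38 with siRNA 1, and for both siRNAs the difference was -0.89 ± 0.34 (limma's adjusted p = 0.9998, unadjusted p = 0.0344).

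Col4a2 read -0.24, 0.30 and 1.20 in Control, -0.46, 0.35 and -0.68 with siRNA 1, and -1.02 and -0.61 with siRNA 2. The pattern was that of Col4a1, with the siRNA 2 arrays below all Control arrays and Control replicate 3 at the top. The differences were -1.24 ± 0.46 with siRNA 2, -0.68 ± 0.41 with siRNA 1 and -0.96 ± 0.37 (1.95-fold lower) for both (limma's adjusted p = 0.9998, unadjusted p = 0.0351).

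Control replicate 3 set much of the size of these differences. Without it, the difference for both siRNAs was -0.47 for Col4a1 and -0.57 for Col4a2. With limma's array weights, set by how closely each array followed the fit over all genes, it was -1.46 and -1.48. Those weights were 4.06 for Control replicate 3 and 0.491 and 0.495 for the other Control arrays, so this value leans on the same array. Within slides, each siRNA array was below the Control array of its own slide for both genes, 5 of 5 pairs. These pairs share 3 Control arrays, and both pairs of slide 3 were taken against Control replicate 3 itself. The share of all genes with 5 lower pairs was not counted. For Col4a1 the pairs gave -0.18 and -0.76 on slide 1, -0.61 on slide 2, and -0.98 and -1.88 on slide 3. For Col4a2 they gave -0.21 and -0.78, -0.98, and -0.85 and -1.81. The siRNA 2 array was the lower of the siRNA arrays on both slides that held one. With slide as a block, the differences for both siRNAs were -0.96 ± 0.19 and -1.03 ± 0.20, with an adjusted p of 0.928 and 0.879 (limma; unadjusted p = 0.00325 and 0.00239). In the same fit siRNA 1 alone differed from Control by -0.59 ± 0.21 and -0.68 ± 0.21 (limma's adjusted p = 0.9993, unadjusted p = 0.0348 and 0.0204).

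The other type IV chains build the specialised networks of kidney, eye, skin and smooth muscle. Of these, Col4a5 and Col4a6 differed from Control by -0.21 to 0.08 with either siRNA. Col4a5, on the X chromosome, read -3.03, -2.88 and -3.03 in Control, -3.04, -3.04 and -3.21 with siRNA 1, and -3.01 and -3.25 with siRNA 2. Its neighbour Col4a6 read -1.92, -1.80 and -1.83, then -1.87, -1.70 and -1.76, then -2.05 and -2.07. Col4a5 differed from Control by -0.12 with siRNA 1 and by -0.15 with siRNA 2, whereas both siRNA 2 arrays of Col4a6 lay below the other 6. The Col4a6 difference between siRNA 2 and siRNA 1 was -0.29 ± 0.09 (limma's adjusted p = 0.9999, unadjusted p = 0.0154), and for both siRNAs against Control it was -0.07 ± 0.07. Col4a4 varied with the slide and is described further on. For both siRNAs it differed by -0.18 ± 0.36, or by -0.11 ± 0.09 with slide as a block. Col4a3 was well above background on no array. In all, 5 of 5 tested type IV chains were lower for both siRNAs together, with a range from -0.96 to -0.07, and 5 of 5 with siRNA 2, but 3 of 5 with siRNA 1.

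**Figure D2:**
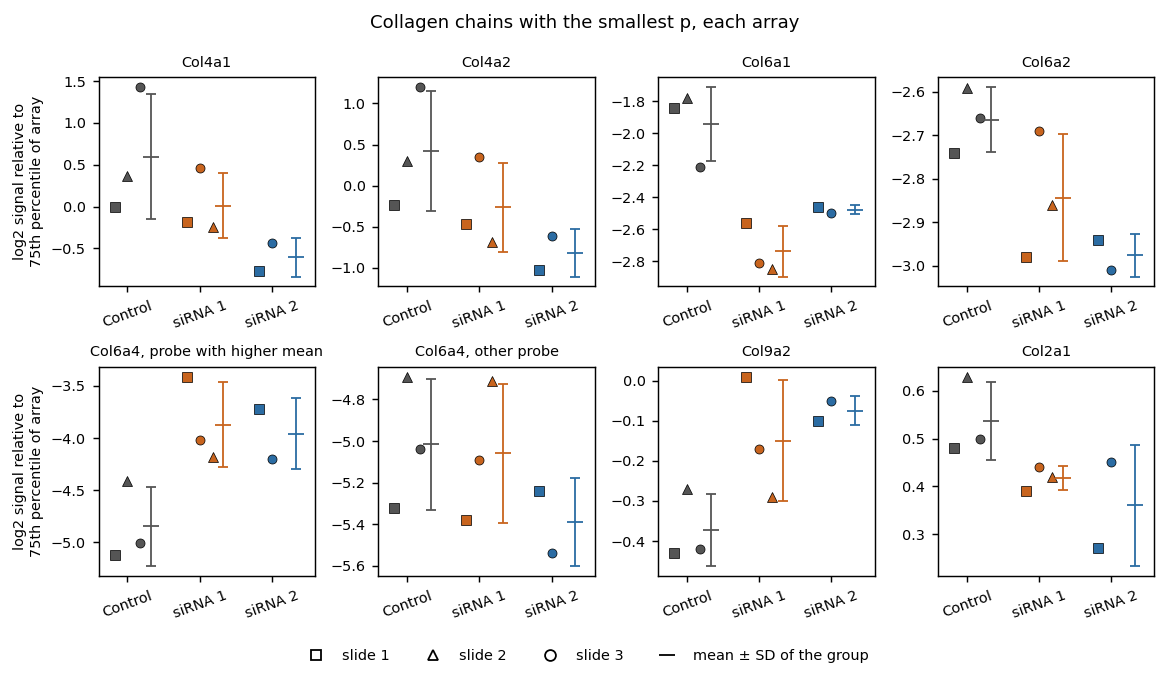
Level on each array (log2 signal minus that of the 75th percentile, vertical axis, scaled per panel) for 7 collagen genes, with both probes of Col6a4, by siRNA group (horizontal axis); point shapes give the slide, and bars give each group's mean ± SD. All 5 siRNA arrays lie below the Control arrays for Col6a1, Control replicate 3 stands highest for Col4a1 and Col4a2, and only 1 of the Col6a4 probes separates the groups.

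Type VI collagen, through Col6a1, gave the smallest p of any collagen gene for both siRNAs against Control, and the differences of its chains were not of one sign. Col6a1 and Col6a2 encode chains that join Col6a3 in the common type VI trimer, and Col6a3 had no matched probe and was not analysed here. Col6a1 lies on chromosome 10 at 76708792 to 76726044 and Col6a2 at 76595756 to 76623630, with start sites 102414 bases apart. Both promoter windows are shown for comparison with the shared one of Col4a1 and Col4a2, chr10:76725995-76726294 and chr10:76623581-76623880, on the minus strand. Capitals mark matches to the 4 motifs above, which the Col6a1 window did not hold.
Col6a1: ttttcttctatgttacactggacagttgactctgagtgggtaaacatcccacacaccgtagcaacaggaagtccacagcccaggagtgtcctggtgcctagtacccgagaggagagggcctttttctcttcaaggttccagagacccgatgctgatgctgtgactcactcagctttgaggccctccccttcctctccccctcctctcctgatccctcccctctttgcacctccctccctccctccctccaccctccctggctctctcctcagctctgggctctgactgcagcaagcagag
Col6a2: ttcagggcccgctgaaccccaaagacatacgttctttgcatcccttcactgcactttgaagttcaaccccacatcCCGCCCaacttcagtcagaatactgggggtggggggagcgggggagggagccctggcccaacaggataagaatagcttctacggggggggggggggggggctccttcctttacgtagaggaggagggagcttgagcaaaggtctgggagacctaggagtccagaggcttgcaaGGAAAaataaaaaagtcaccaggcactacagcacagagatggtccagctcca
The Col6a2 window held 1 GC box and 1 NFAT core. The Col6a1 and Col6a2 windows did not overlap, and their percentage of G and C was 57.3% and 56.7%, beside 74.0% and 73.7% for Col4a1 and Col4a2.

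Col6a1 read -1.84, -1.78 and -2.21 in Control, -2.56, -2.81 and -2.85 with siRNA 1, and -2.46 and -2.50 with siRNA 2. All 5 siRNA arrays lay below all 3 Control arrays. The differences were -0.80 ± 0.14 with siRNA 1 (1.74-fold lower, limma's adjusted p = 0.649) and -0.54 ± 0.15 with siRNA 2 (1.45-fold lower, adjusted p = 0.9997).

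For both siRNAs Col6a1 stood lower by 0.67 ± 0.12, 1.59-fold, with a 95% interval of -0.96 to -0.38 (limma's adjusted p = 0.698, unadjusted p = 0.000989). Each siRNA array was below its slide's Control array, by 0.72 and 0.62 on slide 1, 1.07 on slide 2, and 0.60 and 0.29 on slide 3. No pair could have had the other sign, since all 5 siRNA arrays lay below all 3 Control arrays. With slide as a block the difference was -0.66 ± 0.12 (limma's adjusted p = 0.869). Col6a1 was 1 of 2 collagen genes, with Col2a1, whose 5 siRNA arrays all lay below the 3 Control arrays, a pattern that 0.986% of all genes had.

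Col6a2 read -2.74, -2.59 and -2.66 in Control, -2.98, -2.69 and -2.86 with siRNA 1, and -2.94 and -3.01 with siRNA 2. Only siRNA 1 replicate 2 lay within the Control range. The difference for both siRNAs was -0.24 ± 0.09 (limma's adjusted p = 0.9998, unadjusted p = 0.0288), with -0.18 for siRNA 1 and -0.31 for siRNA 2, and every within-slide pair was lower, by 0.02 to 0.34.

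Col6a4 encodes a chain related to Col6a3, which can take its place. Its brighter probe (A_66_P135947) read -5.12, -4.41 and -5.01 in Control, -3.41, -4.02 and -4.18 with siRNA 1, and -3.72 and -4.20 with siRNA 2. All siRNA arrays lay above all Control arrays, as for 2.48% of all genes, and Col6a4 was the 1 collagen gene to do so. The difference for both siRNAs was 0.93 ± 0.24 (limma's adjusted p = 0.9998, unadjusted p = 0.00651), with 0.98 for siRNA 1 and 0.88 for siRNA 2.

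The other Col6a4 probe (A_65_P11326) did not show this. It read -5.32, -4.69 and -5.04 in Control, -5.38, -5.09 and -4.71 with siRNA 1, and -5.24 and -5.54 with siRNA 2, a difference of -0.20 with overlapping groups. With normexp background correction, or with the mean of both probes, the difference of the gene was 0.36, and without the arrays of slide 1 it was 0.56, so its size rests on the probe, the background correction and the slide. Of the other chains of this kind, Col6a5 was well above background on 2 arrays and Col6a6 on none.

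Among the fibril-forming collagens, the bulk of tendon, bone and skin, of 9 tested, 5 were lower and 4 higher for both siRNAs, between -0.16 and 0.21. Col1a1, a type I chain, read -1.41, -0.96 and -1.16 in Control, -0.62, -1.42 and -1.55 with siRNA 1, and -1.04 and -1.50 with siRNA 2. Col1a2, its partner, read 0.04, 0.15 and 0.01, then 0.22, -0.24 and -0.36, then -0.02 and -0.10. In both genes siRNA 1 replicate 1 was the highest array of all and siRNA 1 replicate 3 the lowest, so this group spanned the others. The differences for both siRNAs were -0.06 ± 0.24 for Col1a1 and -0.16 ± 0.14 for Col1a2. These rest on slide 1, without which they were -0.43 and -0.28, with siRNA 2 then read on its replicate 2 alone. With slide as a block they were -0.07 ± 0.24 and -0.18 ± 0.13.

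Col3a1, which forms fibrils of loose tissue with type I, read -3.63, -3.62 and -3.80 in Control, -3.28, -3.97 and -3.87 with siRNA 1, and -3.66 and -4.16 with siRNA 2. Again siRNA 1 replicate 1 was the highest, and the groups overlapped, with a difference of -0.12 ± 0.19. Without slide 1, and so with replicate 2 alone for siRNA 2, the difference was -0.33. Col2a1, the fibrillar chain of cartilage, which is also made early in the embryo, read 0.48, 0.63 and 0.50 in Control, 0.39, 0.44 and 0.42 with siRNA 1, and 0.27 and 0.45 with siRNA 2. The siRNA arrays all lay below the Control arrays by a small margin, -0.15 ± 0.08 (limma's adjusted p = 0.9998, unadjusted p = 0.0872), and within slides the 5 pairs ran from -0.22 to -0.06.

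The type V chains help to start fibrils. Col5a1 read -1.78, -1.93 and -1.85 in Control, -1.71, -1.77 and -1.93 with siRNA 1, and -1.98 and -1.88 with siRNA 2. Col5a3 read -3.76, -3.46 and -3.68, then -3.30, -3.69 and -3.74, then -3.18 and -3.35. Col5a1 groups overlapped, with a difference of -0.01 ± 0.08. Both siRNA 2 arrays of Col5a3 lay above Control, by 0.37 ± 0.16 (limma's adjusted p = 0.9997, unadjusted p = 0.0579). Without slide 1, Col5a3 was higher by 0.22 on siRNA 2 replicate 2 alone. Col27a1, another fibrillar chain, differed by 0.13 ± 0.13 for both siRNAs, and by -0.07 with array weights. Col5a2 was well above background on 2 arrays and Col24a1 on none, and neither was tested.

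The fibril-associated collagens decorate other fibrils, and 5 of 6 tested were higher for both siRNAs averaged, between -0.23 and 0.26. With siRNA 1 alone 1 of the 6 was lower (median 0.15), and with siRNA 2 alone 3 were lower (median -0.01). Col9a2, a chain of the type IX collagen of cartilage, read -0.43, -0.27 and -0.42 in Control, 0.01, -0.17 and -0.29 with siRNA 1, and -0.10 and -0.05 with siRNA 2. All siRNA arrays except siRNA 1 replicate 3, which lay within the Control range, lay above Control. The difference was 0.26 ± 0.09 (limma's adjusted p = 0.9998, unadjusted p = 0.0237), with 0.22 for siRNA 1 and 0.30 for siRNA 2. The pair on slide 2 gave -0.02 and the other 4 pairs 0.25 to 0.44. Its partner Col9a1 differed by -0.23 ± 0.55, its arrays being split by slide, or by -0.10 ± 0.13 with slide as a block. Col9a3 was not tested.

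Col22a1, a chain of tissue junctions, read -4.54, -4.26 and -4.20 in Control, -4.20, -4.16 and -3.94 with siRNA 1, and -4.28 and -4.69 with siRNA 2. Before rounding, the siRNA 1 arrays all lay above Control, though the nearest levels print alike at -4.20. The siRNA 2 arrays lay below siRNA 1. It differed by 0.23 ± 0.15 with siRNA 1 and by -0.15 ± 0.17 with siRNA 2. Without slide 1 it differed by 0.18 with siRNA 1 and, on siRNA 2 replicate 2 alone, by -0.46.

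The multiplexins, collagens of basement membrane zones whose ends are cleaved off, gave differences near 0. Col18a1, whose end fragment is endostatin, read 4.28, 4.68 and 4.39 in Control, 4.69, 4.33 and 4.45 with siRNA 1, and 4.52 and 4.33 with siRNA 2. The groups overlapped fully, and the difference of 0.01 ± 0.13 had a 95% interval of -0.29 to 0.31. Its relative Col15a1 differed by -0.11. The transmembrane collagens gave -0.22 to 0.29 over 3 tested genes. The largest of these, Col17a1 of the hemidesmosome, was well above background on 6 of 8 arrays and differed by 0.29 ± 0.26, or by -0.14 without slide 1.

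Both siRNAs were set against the same 3 Control arrays, so their differences share those arrays and are given side by side. With siRNA 1, 14 of 31 were lower, beside 41.7% of all genes, with a median of 0.03 (all genes 0.02), and 1 collagen gene in each direction had an unadjusted p under 0.05, beside 2.63% higher and 0.892% lower of all genes. With siRNA 2, 20 of 31 were lower, beside 50.1%, with a median of -0.13 (all genes 0.00), and 2 higher and 4 lower had such a p, beside 1.42% and 1.94%. Arrays that lay wholly below Control were found for 8 collagen genes with siRNA 2, which were Col1a2, Col2a1, Col4a1, Col4a2, Col4a6, Col6a1, Col6a2 and Col23a1, beside 8.1% of all genes. With siRNA 1 they were found for 4, which were Col2a1, Col4a5, Col6a1 and Col7a1, beside 2.48%. Arrays wholly above Control were found for Col6a4 and Col22a1 with siRNA 1, beside 5.47% of all genes, and for Col5a3, Col6a4 and Col9a2 with siRNA 2, beside 8.82%. Overlap was judged on unrounded levels. With siRNA 1 the nearest levels of Col7a1 and Col22a1 print alike, at -1.04 and -4.20, and those of Col4a5 at -3.04 and -3.03, so these separations are very small.

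Set directly against each other, siRNA 2 was lower than siRNA 1 in 21 of 31 collagen genes, beside 57.4% of all genes. Only Col4a6 had an unadjusted p under 0.05, beside 2.5% of all genes on the lower side, and 0 had one on the higher side, beside 0.807%. Both siRNA 2 arrays lay below all siRNA 1 arrays for 5 genes, Col4a1, Col4a6, Col15a1, Col22a1 and Col23a1, beside 11.7% of all genes, and above them for Col6a1, Col7a1 and Col8a2, beside 7.32%. Col22a1 differed by -0.38 ± 0.17, or by -0.64 without slide 1, on siRNA 2 replicate 2 alone. Col23a1, a transmembrane chain, differed by -0.36, while Col5a3 differed by 0.31 ± 0.16 and Col6a1 by 0.26 ± 0.15. The difference of Col4a1 between siRNAs was -0.61 ± 0.42, with a 95% interval that ran from -1.61 to 0.39. With slide as a block it was -0.74 ± 0.25, and that of Col4a2 -0.69 ± 0.25 (limma's adjusted p = 0.9999 for both, unadjusted p = 0.0273 and 0.0362).

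Within slides, the median of the 31 genes was not of one sign. On slide 1 it was 0.20 for siRNA 1 and 0.08 for siRNA 2, on slide 2 it was -0.23 for siRNA 1, and on slide 3 it was 0.02 for siRNA 1 and -0.11 for siRNA 2. The number of genes below the Control array of the slide was 11, 13, 23, 15 and 21 of 31 in the same order.

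**Figure D3:**
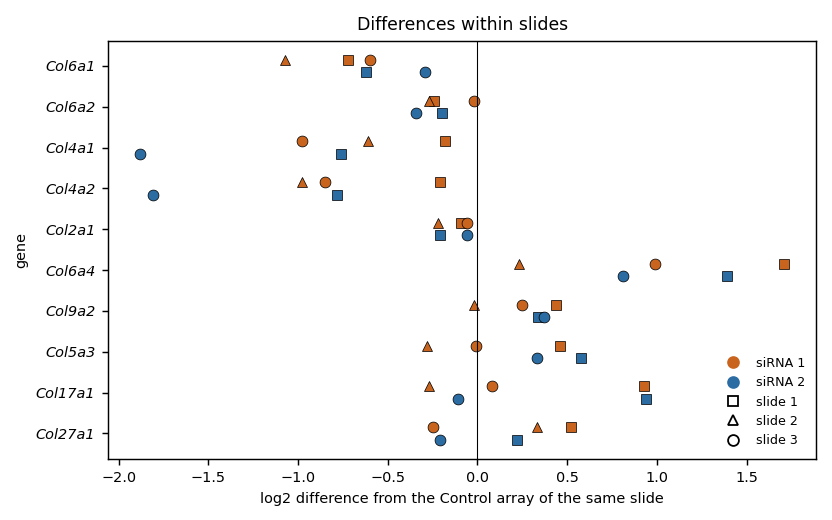
Log2 difference of each siRNA array from the Control array of its slide (horizontal axis) for the 10 collagen genes with the smallest p in each direction (vertical axis); colour gives the siRNA and shape the slide. All 5 points of Col6a1, Col6a2, Col4a1, Col4a2 and Col2a1 lie below 0 and all 5 of Col6a4 above, while Col17a1 and Col27a1 lie on both sides. For Col6a1, Col2a1 and Col6a4 the siRNA and Control arrays do not overlap, so their points could not lie on both sides.

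Genes that make, bind or cut collagen were also not called, 0 in every list. Of 32 tested processing genes, 22 were lower and 10 higher for both siRNAs, with a median of -0.06. Serpinh1, which encodes the collagen chaperone HSP47, read 1.12, 1.69 and 1.91 in Control, 1.20, 1.41 and 1.02 with siRNA 1, and 0.96 and 0.72 with siRNA 2. Both siRNA 2 arrays and siRNA 1 replicate 3 lay below Control, and Control replicate 3 was again the highest. The difference was -0.55 ± 0.19 (limma's adjusted p = 0.9998, unadjusted p = 0.0239), with -0.73 for siRNA 2 and -0.36 for siRNA 1. Adamts14, a proteinase that trims the amino end of procollagen, differed by 0.23 ± 0.09, with 0.38 for siRNA 1 and 0.08 for siRNA 2.

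All 10 tested collagen receptors were lower for both siRNAs averaged, with a median of -0.17, and 9 with siRNA 1 alone and 8 with siRNA 2. They were led by Cspg4, the proteoglycan NG2, at -0.32 ± 0.09, and Antxr2, the receptor CMG2, which binds collagen IV and VI, at -0.26 ± 0.08. Of 9 collagenases, gelatinases and related genes, 6 were lower for both siRNAs averaged, with a median of -0.13. With siRNA 1 alone 6 were lower (median -0.17), and with siRNA 2 4 were lower and 5 higher (median 0.01). Ctsk, the collagen-cutting cathepsin K, differed by -0.57 ± 0.22. Fap, a fibroblast surface protease, was well above background on all 3 Control arrays and on 0 siRNA arrays. It was at least 1.62-fold lower against the lowest signal called well above background. Fap entered the test through its Control arrays alone, so its place among the lower genes in each count was nearly fixed. Of 20 partners that bind collagen in the matrix, 12 were higher, with a median of 0.05, among them Tgfbi at 0.42 ± 0.18 and Vwa1 at 0.27 ± 0.10.

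Markers of cells that make collagen stood as follows beside these values. In visceral endoderm, 10 of 11 markers were lower for both siRNAs (median -0.61). With siRNA 1 alone 7 of 11 were lower, with a median of -0.18, and with siRNA 2 11 of 11, with a median of -1.20. The log2 of their summed signal ran from 2.43 to 3.45 in Control, 2.52 to 3.25 with siRNA 1 and 1.86 to 1.87 with siRNA 2. In parietal endoderm, which makes the thick type IV membrane of the yolk sac, 13 of 13 were lower, with a median of -0.35 (-0.19 with siRNA 1 and -0.42 with siRNA 2), and the summed signal ran from 6.68 to 7.22, 6.58 to 6.96 and 6.54 to 6.77. Control replicate 3, the highest array for Col4a1 and Col4a2, was also the highest for both sums, at 3.45 and 7.22. The part of these cells in the type IV values was not tested.

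For the type VI and fibrillar chains, fibroblast markers were split evenly, 5 higher and 5 lower of 10 tested, with a median of 0.00. Their summed signal ran from 2.97 to 3.06 in Control, 2.97 to 3.27 with siRNA 1 and 3.09 to 3.19 with siRNA 2. Of the 14 fibroblast markers listed, 8 were well above background on all 8 arrays, and Prrx1 and Dpt on none. The 2 fibroblast markers with an unadjusted p under 0.05 were both lower, beside 1.3% of all genes lower at that p. They were Fap, given above, and the growth factor receptor Pdgfra at -0.82 ± 0.30 (limma's adjusted p = 0.9998). Fap passed the filter through the Control arrays alone, so it could hardly have been found higher. Smooth muscle markers summed to 3.02 to 3.56 in Control, 2.79 to 2.92 with siRNA 1 and 3.00 to 3.11 with siRNA 2, with 4 of 6 lower, among them Tagln at -0.56 ± 0.13 and Acta2 at -0.52 ± 0.13. Of 8 cartilage markers, 4 were well above background on all 8 arrays, and Sox5, Sox6 and Hapln1 on none. The 5 tested were all higher for both siRNAs averaged, with a median of 0.12. With siRNA 2 alone 4 were higher and 1 lower (median 0.10). Averaged, Comp differed by 0.12 ± 0.09 and Sox9 by 0.23 ± 0.21. Of 3 tested endothelial markers, 2 were higher for both siRNAs and 1, Flt1, was lower, at -0.39 ± 0.09. The summed signal of the 3 ran from 0.03 to 0.23 in Control, -0.18 to -0.01 with siRNA 1 and -0.38 to -0.03 with siRNA 2. Pluripotent cell markers were higher in 6 of 8, with a median of 0.17. Mesoderm and primitive streak markers were lower in 7 of 9 for both siRNAs averaged, with a median of -0.62, among them Fgf8 at -1.08 ± 0.25. With siRNA 1 alone 5 were lower and 4 higher (median -0.37), and with siRNA 2 8 were lower and 1 higher (median -0.79). The part of these cells in the collagen values was not tested.

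Slide 1 against the other slides, compared within groups after the arrays of slide 1 were seen to stand apart, was the only comparison in which collagen genes passed the test. There, 5.99% of all genes were called, 5.32% as lower on slide 1, and 2 of the 31 collagen genes were called, both lower. Col9a1 read -4.20 in Control, -4.73 in siRNA 1 and -4.51 in siRNA 2 on slide 1, and between -3.21 and -2.85 on the other 5 arrays. Col4a4 read -5.49, -5.64 and -5.75 on slide 1 and between -4.86 and -4.56 elsewhere. In both genes the 3 arrays of slide 1 lay below the other 5 whatever the siRNA. Col9a1 fell by 1.43 ± 0.13 (2.69-fold, limma's adjusted p = 0.00126) and Col4a4 by 0.93 ± 0.08 (1.91-fold, adjusted p = 0.00141). With normexp background correction Col9a1 differed by -0.52 and was still called (adjusted p = 0.0074), and Col4a4 differed by -0.24 and was not called (adjusted p = 0.0837). With no background correction the differences were -0.68 and -0.37, both called.

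**Figure D4:**
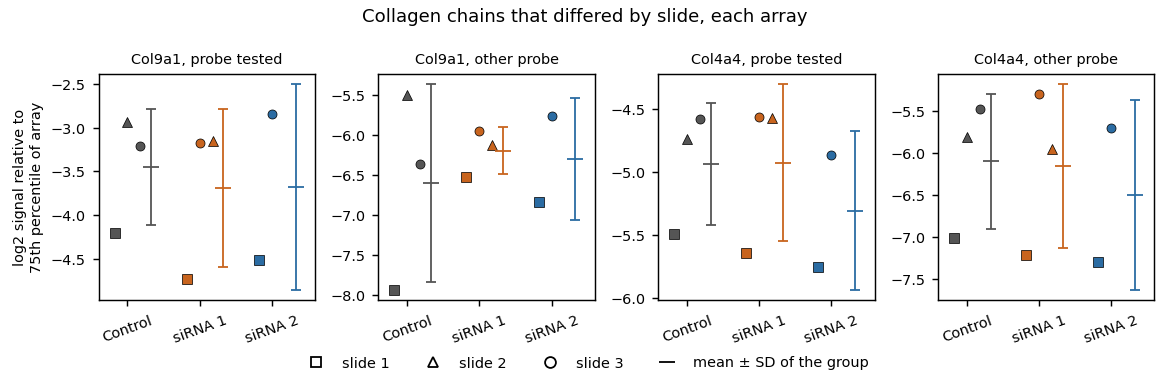
Level on each array (log2 signal minus that of the 75th percentile, vertical axis, scaled per panel) of the tested probe and another probe of Col9a1 and Col4a4 by siRNA group (horizontal axis); squares are slide 1, and bars give each group's mean ± SD. The squares lie lowest in every group for the tested probes, between -4.73 and -4.20 for Col9a1 and between -5.75 and -5.49 for Col4a4.

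The remaining collagen genes did not reach background or could not be named. Of the 11 untested genes, 7 were well above background on no array and the other 4, Col5a2, Col6a5, Col9a3 and Col10a1, on 1 or 2. Those on none were Col4a3, Col6a6, Col8a1, Col13a1, Col19a1, Col24a1 and Col28a1, for which a level can be given as not well above background and no difference is stated. Col12a1, like Col6a3, had no matched probe and was not analysed here.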

How the data were processed

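Each deposited scanner file held 1 Agilent array (Cy3) of 44397 spots, which, per the file headers, came from Agilent Feature Extraction 10.7.3.1. The authors' processed intensity was already background-corrected, per the file headers. A deposited log2 table of the same arrays followed log2 processed intensity minus the array's 75th percentile, centred per probe, with column medians from -0.039 to 0.019; the column of Control 2 matched the scanner file of Control 3 and the reverse. RMA is named, without a role, in the submitters' processing notes.

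Here control and outlier spots were left out (0 were saturated), log2 processed intensity minus the 75th percentile was taken, spots of a probe were averaged, and the probe with the highest mean over 8 arrays stood for a gene. Genes were tested where that probe stood well above background throughout 1 or more groups. The files name probes by accession, and 26424 of 39429 matched 1 symbol through RefSeq (GRCm38.p6), with 13005 unnamed. Groups were fitted together in limma 3.58.1 (R 4.3.3) with lmFit and eBayes, and p-values were adjusted over 22422 genes at 0.05. The fit was tested on simulated data in which the arrays were independent and slides had no effect, unlike the arrays here. The alternatives were normalization, background, filter, probe rule, array weights, replicate and slide blocks, and arrays left out. Where no gene passed, the 5 genes with the smallest p in each direction for both siRNAs, and 3 in each other comparison, were named, with types I, III, IV, V, VI and XVIII. Members and lists were chosen with earlier results of these data known.

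Same-numbered arrays on different slides correlated by 0.01, -0.042 and 0.049 in their deviations from group means, and those on the same slide by 0.33 to 0.70, so numbers were not taken to pair samples.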

Additional observations from a re-analysis of the deposited data

Results flagged for a closer look

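Col7a1, the chain of the anchoring fibrils of skin, stood below the Control mean on all 3 siRNA 1 arrays and above it on both siRNA 2 arrays. It read -1.04, -0.95 and -1.03 in Control, -1.08, -1.04 and -1.11 with siRNA 1, and -0.81 and -0.95 with siRNA 2. The difference between siRNA 2 and siRNA 1 was 0.20 ± 0.09 (limma's adjusted p = 0.9999, unadjusted p = 0.0576), so it did not pass the test.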

How the results depend on the processing

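No collagen gene was called in any siRNA comparison under any alternative, so none of the differences passed the test. Among the differences of single genes the sign turned for Col27a1 with both siRNAs under array weights (-0.07) and for Col17a1 without slide 1 (-0.14). The list medians lay near 0, and 9 of their 87 alternative values had the other sign. The ranges were -0.14 to 0.05 for both siRNAs, -0.11 to 0.11 for siRNA 1, -0.20 to 0.02 for siRNA 2 and -0.17 to 0.01 for siRNA 2 against siRNA 1. The siRNA 1 median was -0.11 without slide 1. Leaving out 1 array moved the siRNA 2 median between -0.15 and 0.02, the highest without siRNA 2 replicate 2. On slide 1, 1 collagen gene was called with normexp and 4 with array weights, and 2 to 4 when 1 array was left out, the 4 without Control replicate 1. On slide 1, Col4a4 was -0.24 and Col9a1 -0.52 with normexp. The causes were not tested. With replicate number as a block, the median for both siRNAs was -0.06, Col6a1 was -0.72, Col4a1 -0.82 and Col4a2 -0.92, and the block changed no call. Dim signals limit the precision, and Col17a1 was not well above background on 2 arrays.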

Other observations

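Of the 31 tested genes, 8 had 9 further probes that passed the same filter. For both siRNAs, the probes of a gene lay within 0.32 of each other in log2 difference except for those of Col6a4, which lay 1.13 apart. On slide 1, 7 of the 9 further probes were lower, relative to the other slides, than the tested probe of the same gene. The further probe of Col14a1, a fibril-associated chain, gave -1.18 beside 0.04 for the tested one, that of Col23a1 -0.85 beside -0.17, and that of Col8a2, a network chain of the eye's cornea, -0.77 beside -0.04. These are means of the 3 groups' differences between slide 1 and the other slides, and the cause was not tested.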
